A study of Homo sapiens with 15 samples.

Results

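The genes described here are 9 components of the AKT and mTORC1 pathway, namely AKT1, AKT2, PDPK1, MTOR, RPTOR, DEPTOR, TSC1, TSC2 and DDIT4. They were chosen by name, by a rule that used no measured value, but with earlier results of these data known. Their Ensembl identifiers were matched to GENCODE symbols in gene count tables that hold 60617 genes, and all 9 were kept by a filter on low counts that left 23184 genes for testing. In edgeR, DDIT4 was the only one of the 9 that differed both with RSAD2 siRNA, where it was lower, and with insulin, where it was higher. DEPTOR was lower with RSAD2 siRNA, and the other 7 passed an adjusted p of 0.05 in none of the 5 comparisons between groups in edgeR. DESeq2 also called AKT1 in 2 of these 5, with siRSAD2 (adjusted p = 0.0291) and with insulin and empty vector (adjusted p = 0.0243).

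Insulin and growth factors activate phosphatidylinositol 3-kinase at the cell membrane, and its lipid product brings PDPK1 and the AKT kinases together so that PDPK1 can phosphorylate AKT. AKT inhibits the TSC1 and TSC2 complex, which otherwise keeps the small GTPase RHEB inactive, and active RHEB switches on the MTOR kinase in mTORC1. RPTOR (Raptor) brings substrates to mTORC1, DEPTOR binds and inhibits MTOR, and DDIT4 (REDD1) is a stress-induced protein that restrains mTORC1 through the TSC complex. The control of these proteins runs mostly through phosphorylation and binding, which mRNA counts do not measure.

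The RNA came from 12Z cells, an immortalized line of human epithelial cells from endometriosis. The study asked how insulin and an oncogenic form of PIK3CA act on such cells and whether RSAD2, which encodes the antiviral protein Viperin, has a part in it. A total of 15 libraries fell into 5 groups of 3. The first 4 groups received a pool of siRNAs against RSAD2 (siRSAD2): pBabe PIK3CA H1047R with insulin, pBabe PIK3CA H1047R with vehicle, empty pBabe with insulin, and empty pBabe with vehicle. The fifth group received a pool of non-targeting siRNAs, empty pBabe and vehicle. All cells had an siRNA transfection, a plasmid transfection 24 h later and 4 h without serum, and were then kept for 24 h in serum-free medium with 100 nM insulin or vehicle. H1047R is an activating substitution in the catalytic subunit of phosphatidylinositol 3-kinase. It was given on a transiently transfected plasmid to cells of 1 line, and insulin and H1047R are compared only within siRSAD2 cells, so neither is described here in cells with RSAD2 intact.

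Gene counts totalled 16.1 to 39.7 M per library, with a median of 24.3 M. RSAD2 lay at 0.0768 to 3.69 CPM (gene counts scaled to library size with TMM factors) and PIK3CA at 76.5 to 223 CPM. RSAD2 averaged 3.29 CPM in non-targeting cells, 0.326 and 0.331 CPM in siRSAD2 empty-vector vehicle and insulin cells, and 0.899 and 0.837 CPM with H1047R. PIK3CA averaged 211 CPM in H1047R vehicle and 163 CPM in H1047R insulin cells, without overlap. With empty vector it averaged 89.0 and 79.2 CPM in siRSAD2 vehicle and insulin cells and 103 CPM in non-targeting cells. The part of these differences in the comparisons was not tested. The keratins KRT8, KRT18 and KRT19 were at 414 CPM or more in every library, whereas the epithelial adhesion genes EPCAM and CDH1 did not exceed 1.00 CPM and the mesenchymal genes VIM and COL1A1 were at 1491 CPM or more. Keratins thus matched the epithelial label, and EPCAM and CDH1 did not. A pair of siRSAD2 empty-vector libraries stood apart from the rest, vehicle library 3 and insulin library 2, and counts of called genes are also given without them. The share of gene counts on the strand opposite to the reverse-stranded one was 6.11 to 6.50% in 7 libraries, all 6 with H1047R and empty-vector insulin library 3, against 5.77 to 5.89% in the other 8. This split almost coincides with the vector, so that H1047R and this difference between libraries cannot be told apart in vehicle.

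Per unit of transcript length, AKT1 and AKT2 were the most abundant of the 9 and DEPTOR the least. Levels averaged over the 15 libraries were 51.2 CPM per kb of canonical transcript for AKT1, 37.5 for AKT2, 34.1 for DDIT4 and 24.7 for MTOR. Levels on the same scale were 11.5 for TSC2, 11.1 for RPTOR, 8.51 for PDPK1, 7.04 for TSC1 and 0.887 for DEPTOR. The order above DEPTOR depends on the length used. When all annotated exons of a gene were counted as its length, DDIT4 was highest at 28.1 CPM per kb, followed by MTOR at 16.1, AKT1 at 13.8 and AKT2 at 12.4, and DEPTOR was again lowest at 0.868.

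**Figure D1:**
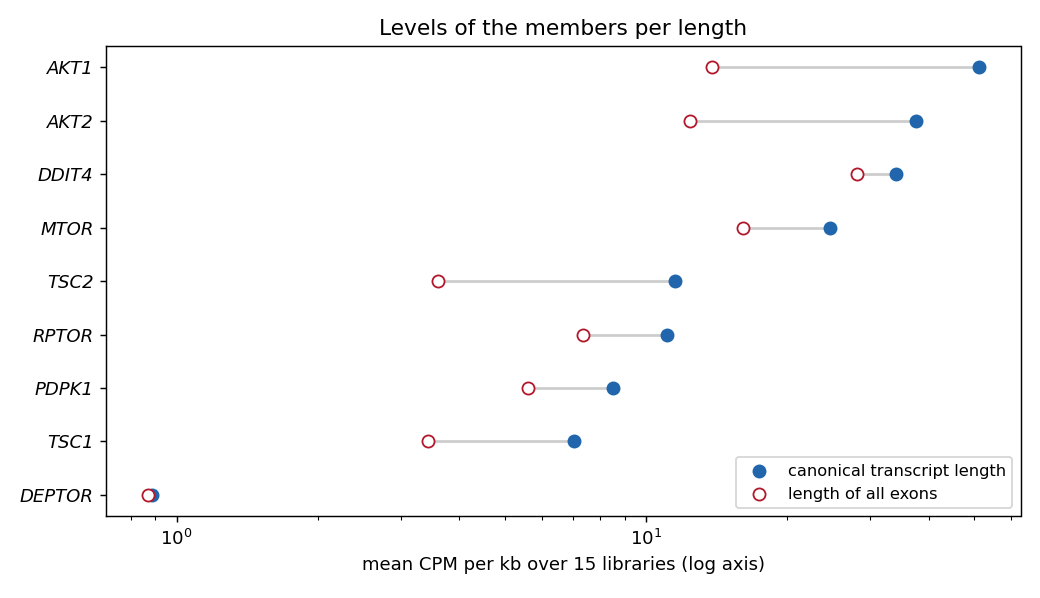
Mean level of each of the 9 genes over 15 libraries, in CPM per kb on a log axis, with the canonical transcript (filled) or all exons (open) as length. DEPTOR lies below 1 CPM per kb with either length, and DDIT4 moves to the top when all exons are counted.

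Levels varied little between libraries for most of the 9. The highest library exceeded the lowest by 1.15 times for AKT1, 1.17 for AKT2 and for MTOR, 1.20 for TSC1, 1.21 for PDPK1, 1.24 for RPTOR and 1.26 for TSC2. The same ratio was 1.57 for DDIT4 and 2.37 for DEPTOR. DEPTOR had 24 to 114 counts per library, whereas every other component had at least 932. In a test for any difference among the 5 groups (edgeR quasi-likelihood F test with Benjamini-Hochberg adjustment over 23184 genes), 3 of the 9 passed, DDIT4 with an adjusted p of 1.81e-07, DEPTOR with 0.000769 and AKT2 with 0.0389. In the same test 28.4% of all genes passed. The AKT2 call was lost in 13 of the 24 analyses run, among them the removal of any 1 of the non-targeting or H1047R vehicle libraries.

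**Figure D2:**
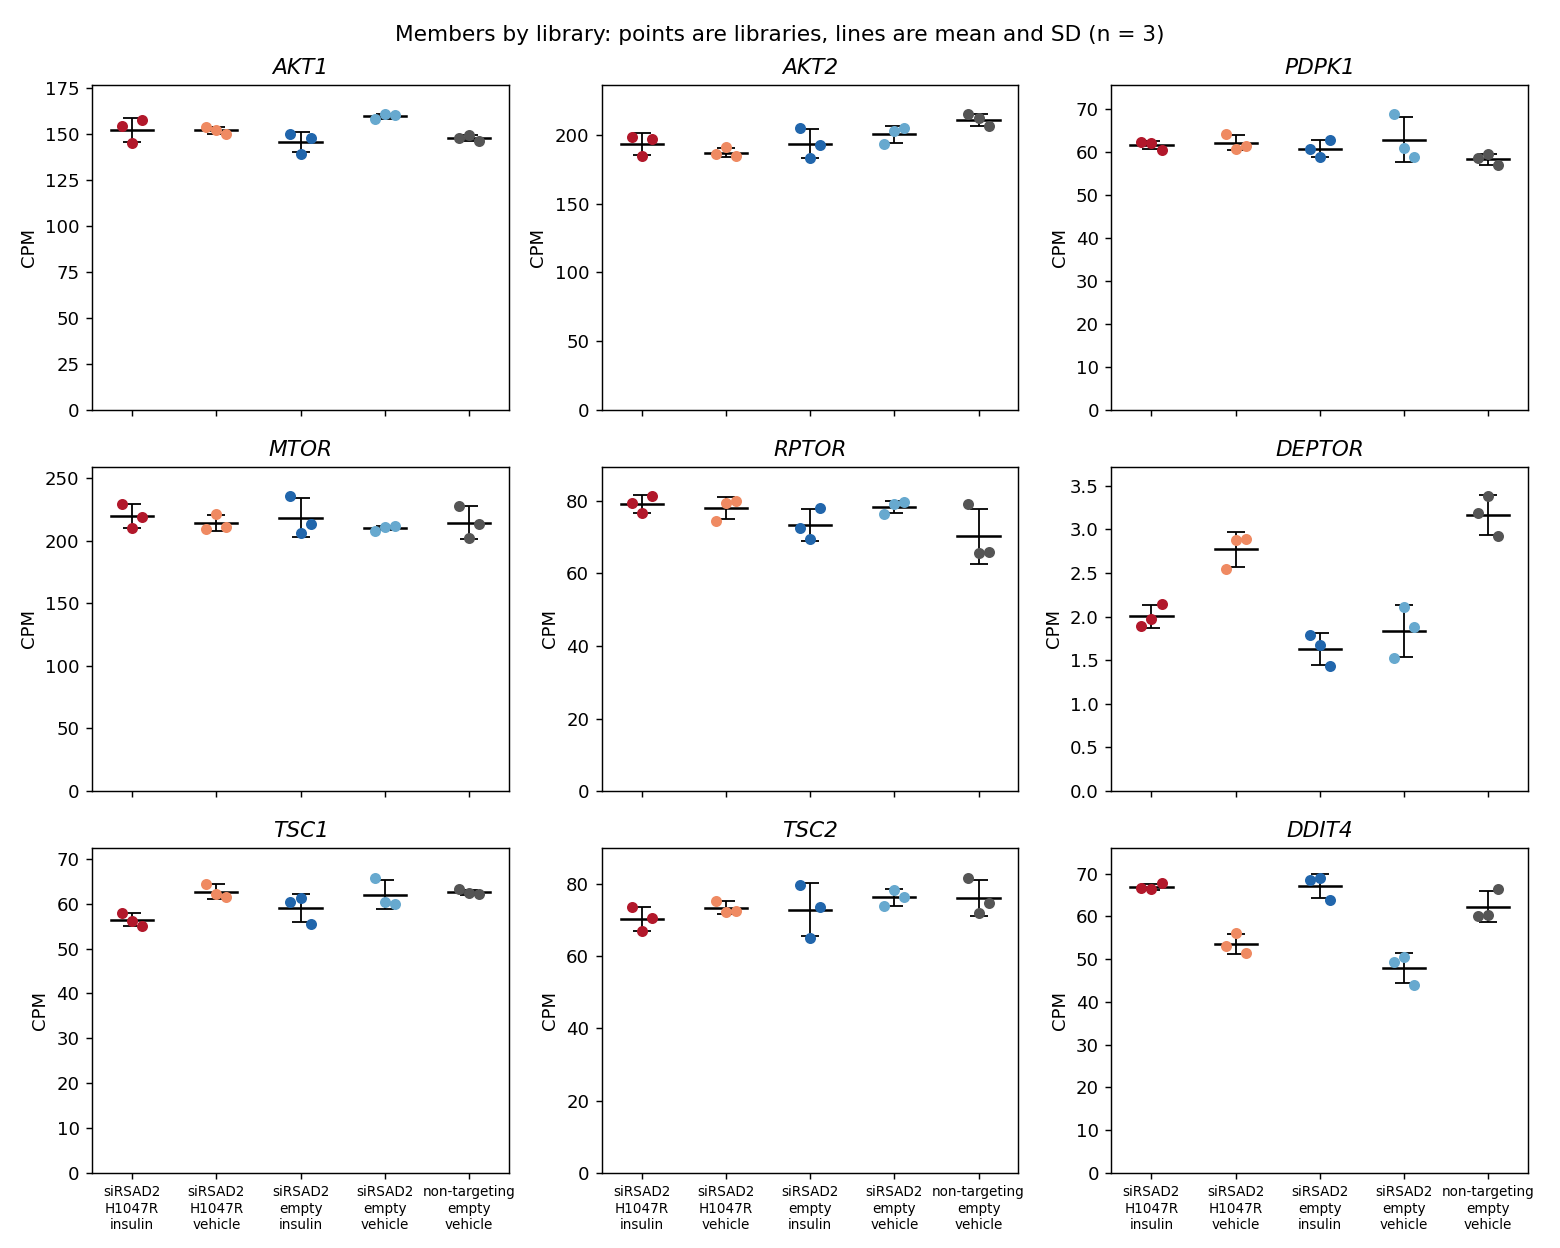
CPM of each component in every library (points), with the mean and SD of each group of 3 (lines). DDIT4 is high in both insulin groups and lowest in siRSAD2 empty-vector vehicle cells, DEPTOR is highest in non-targeting cells, and the other panels are nearly flat.

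DDIT4 lies on the plus strand at chr10:72273919-72276036 (hg38, GENCODE release 44) and encodes an inhibitor of mTORC1 that is induced by hypoxia, energy depletion and endoplasmic reticulum stress. DDIT4 had 66.5, 66.3 and 67.8 CPM in siRSAD2 H1047R insulin libraries, against 53.0, 56.1 and 51.5 CPM in siRSAD2 H1047R vehicle libraries. With empty vector, DDIT4 had 68.5, 69.1 and 63.8 CPM in siRSAD2 insulin libraries, against 49.2, 50.5 and 43.9 CPM in siRSAD2 vehicle libraries. Every insulin library was above every vehicle library with either vector. Non-targeting vehicle libraries had 60.0, 60.4 and 66.4 CPM, above all 6 siRSAD2 vehicle libraries and overlapping with the insulin libraries of siRSAD2 cells.

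With empty vector, DDIT4 averaged 67.1 ± 2.87 CPM in insulin cells and 47.9 ± 3.49 CPM in vehicle cells (SD, n = 3 each). It was 1.41-fold higher with insulin, a log2 fold change of 0.49 ± 0.06 (SE) with an adjusted p of 1.4e-06 in edgeR. DDIT4 was the only one of the 9 components called by edgeR in this comparison, in which 6.28% of all genes were called. With H1047R, it averaged 66.9 ± 0.785 CPM in insulin cells and 53.5 ± 2.38 CPM in vehicle cells (SD, n = 3 each). It was 1.25-fold higher with insulin, a log2 fold change of 0.32 ± 0.06 (SE) with an adjusted p of 0.00124 in edgeR, and it was again the only one of the 9 called, against 2.47% of all genes. Averaged over both vectors the insulin effect on DDIT4 was 0.40 ± 0.04 (log2, SE; adjusted p = 3.91e-08 in edgeR), and here too DDIT4 was the only component of the 9 called by edgeR, against 8.37% of all genes.

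The insulin effect on DDIT4 was smaller with H1047R than with empty vector by 0.17 on the log2 scale, with a 95% interval of the difference from -0.35 to 0.00. That difference had an unadjusted p of 0.0527 and an adjusted p of 0.714 in edgeR, so a difference in response between the vectors was not shown. None of the 9 components and 0% of all genes passed this interaction test in edgeR. At an unadjusted p under 0.05 it held 1 of the 9, AKT1, and 1611 of all genes, and DESeq2 called none of either.

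DDIT4 was lower in siRSAD2 cells than in cells with non-targeting siRNA, both with empty vector and vehicle. Its levels averaged 47.9 ± 3.49 CPM in siRSAD2 cells and 62.3 ± 3.57 CPM in non-targeting cells (SD, n = 3 each). These siRSAD2 libraries are also the reference for insulin with empty vector, so the siRNA effect and that insulin effect are not independent. The log2 fold change was -0.38 ± 0.06 (SE), or 0.769 of the non-targeting level, with an adjusted p of 2.03e-05 in edgeR. Together with DEPTOR, DDIT4 made up 2 of the 9 components called in this comparison, both lower in siRSAD2 cells, against 19.5% of all genes called. In vehicle, H1047R libraries had more DDIT4 than empty-vector libraries without overlap, at 53.5 ± 2.38 CPM against 47.9 ± 3.49 CPM (SD, n = 3 each), but the log2 difference of 0.17 ± 0.06 (SE) did not pass in edgeR (adjusted p = 0.205).

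The DDIT4 calls with siRNA and insulin were also made without the pair of libraries that stood apart and within libraries of 1 opposite-strand class, analyses added after the data were seen. The siRNA effect was -0.32 without the pair and -0.37 within 1 class (log2), with edgeR adjusted p values of 5.14e-05 and 0.00037. All libraries of the siRNA comparison are in the class with the lower share, so the class restriction compared the same libraries. It changed only the shared spread and scaling and cannot check that call against class. The same holds for insulin with H1047R, whose libraries are all in the other class. Without the pair and within 1 class, the insulin effect with empty vector was 0.41 and 0.51 (log2), with adjusted p values of 2.1e-05 and 0.000183 in edgeR. Counts made without regard to strand held only 22.9 to 31.1% of the reverse-stranded DDIT4 counts. With those counts the siRNA effect on DDIT4 was -0.26 (log2) and missed the threshold in edgeR (adjusted p = 0.053), whereas the insulin effects of 0.38 and 0.34 passed (adjusted p = 0.0122 with empty vector and 0.0434 with H1047R). Why unstranded counting lost these reads was not tested. GENCODE release 44 shows no other gene that shares exon bases with DDIT4, but the release used for counting is not known. Unstranded counts were also fewer for other components, at 63.6 to 68.8% of the reverse-stranded counts for AKT1, 65.1 to 75.1% for PDPK1 and 61.5 to 95.9% for DEPTOR.

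The sequence upstream of DDIT4 is shown because this gene moved with both the siRNA and insulin. The stretch below runs 5′ to 3′ over the 245 bases before the GENCODE gene start, chr10:72273674-72273918 on the plus strand (RefSeq, GRCh38.p14). Capitals mark ACGTG, a form of the core of the hypoxia response element. A search of the RefSeq window of 300 bases around the start found it at bases -125 to -121 from the RefSeq start site. Other forms of that core were not searched and are not marked.
DDIT4: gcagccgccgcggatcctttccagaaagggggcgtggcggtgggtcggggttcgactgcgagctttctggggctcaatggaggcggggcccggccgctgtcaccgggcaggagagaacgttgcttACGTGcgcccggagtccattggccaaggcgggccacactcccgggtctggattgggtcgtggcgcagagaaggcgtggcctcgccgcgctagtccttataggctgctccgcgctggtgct
The window held no other motif searched. The motifs, read on both strands, were ACGTG, the E-box CACGTG that contains it, the FOXO site TGTTTAC, the ATF4 composite site TGATGNAA and the TATA box TATAAA. The letters ACGTG occurred in 21.4% of 35116 RefSeq windows of this length, CACGTG in 7.26%, TGATGNAA in 3.62%, TGTTTAC in 3.42% and TATAAA in 11.5%. Of 8 components whose windows were searched, ACGTG was found in DDIT4 and TSC2, CACGTG and TGATGNAA in TSC2, TATAAA in RPTOR and TGTTTAC in none. A match here describes letters and not a bound site.

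DEPTOR, the subunit of mTORC1 and mTORC2 that inhibits MTOR, was the component with the largest fold change. It had 1.52, 2.11 and 1.87 CPM in siRSAD2 vehicle libraries with empty vector, against 3.18, 3.38 and 2.92 CPM in non-targeting libraries. All siRSAD2 libraries lay below all non-targeting libraries. DEPTOR averaged 1.84 ± 0.298 CPM in siRSAD2 cells and 3.16 ± 0.232 CPM in non-targeting cells (SD, n = 3 each). The log2 fold change was -0.79 ± 0.19 (SE), 0.579 of the non-targeting level, with an adjusted p of 0.00266 in edgeR. The 95% interval reached from -1.17 to -0.40 (log2), and with 44 to 94 counts per library in these 2 groups the size of the difference is known only within that range. Without the pair of libraries that stood apart it was -0.81 (adjusted p = 0.00559 in edgeR), and with unstranded counts -0.62 (adjusted p = 0.0515).

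DEPTOR also differed without overlap between vectors, but no such difference passed the test. In vehicle it had 2.54, 2.88 and 2.89 CPM in siRSAD2 H1047R libraries, against 1.52, 2.11 and 1.87 CPM in siRSAD2 empty-vector libraries. The log2 difference of 0.60 ± 0.19 (SE) had an adjusted p of 0.129 in edgeR and a 95% interval from 0.21 to 0.99. With insulin it had 1.89, 1.97 and 2.15 CPM in H1047R libraries, against 1.79, 1.67 and 1.43 CPM in empty-vector libraries. This log2 difference of 0.29 ± 0.21 (SE) did not pass either (adjusted p = 0.684 in edgeR). Within H1047R cells DEPTOR averaged 2.00 ± 0.133 CPM with insulin and 2.77 ± 0.200 CPM with vehicle (SD, n = 3 each), again without overlap. That log2 difference of -0.46 ± 0.19 (SE) had an adjusted p of 0.315 in edgeR. At this depth DEPTOR differences of such a size were not resolved.

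No component of the 9 was called for H1047R. In vehicle this compares with 1.36% of all genes called, with insulin with 0.285%, and averaged over both treatments with 2.72%. At an unadjusted p under 0.05 in edgeR the counts were 3 of the 9 in vehicle (DEPTOR, DDIT4 and AKT2), 0 with insulin and 1 for the average (DEPTOR). The same unadjusted counts over all 23184 genes were 2891 in vehicle, 2440 with insulin and 3466 for the average. DESeq2 called none of the 9 in any of the 3, and 385, 154 and 839 of all genes. With a term for the opposite-strand class, added after the data were seen, the genes called for H1047R fell to 3 of all genes in vehicle against 316 without the term, to 20 against 66 with insulin and to 19 against 630 for the average. The only empty-vector library in the class of the H1047R libraries is insulin library 3, so the term is separated from H1047R through that library alone. Fewer calls with the term therefore cannot show what the library difference contributed to the H1047R values, and its part was not tested further.

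**Figure D3:**
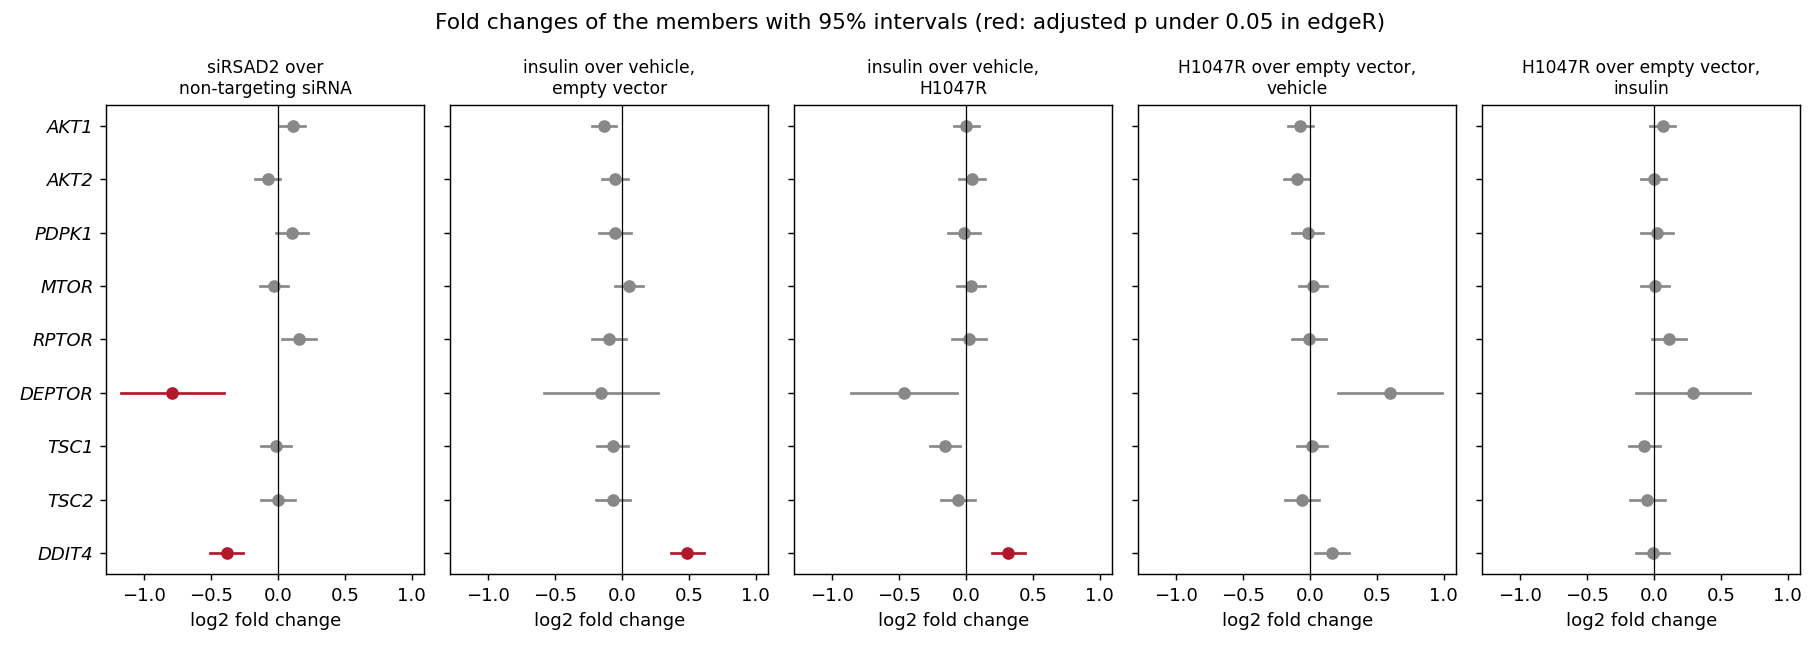
Log2 fold changes of the 9 components in the 5 comparisons between groups, with 95% intervals, red where the adjusted p was under 0.05 in edgeR. Only DEPTOR and DDIT4 with siRSAD2 and DDIT4 with insulin are red, and no interval of the other 7 genes reaches beyond 1.22-fold.

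MTOR lies at chr1:11106535-11262556 on the minus strand and RPTOR at chr17:80544819-80966371 on the plus strand (hg38, GENCODE release 44, as for the positions that follow). MTOR, the kinase itself, kept nearly the same level in all groups. Its means were 219 ± 9.57 CPM in H1047R insulin, 214 ± 6.28 in H1047R vehicle, 218 ± 15.5 in empty-vector insulin and 210 ± 1.90 in empty-vector vehicle cells with siRSAD2, against 214 ± 13.0 CPM in non-targeting cells (SD, n = 3 each). The ranges of all 5 groups overlapped. Over the 5 comparisons its log2 fold changes ran from -0.03 to 0.05, and no 95% interval reached beyond 1.12-fold in either direction. RPTOR, the substrate-binding subunit, had 76.4, 79.0 and 79.5 CPM in siRSAD2 empty-vector vehicle libraries, against 79.0, 65.5 and 66.0 CPM in non-targeting libraries. A single non-targeting library was as high as the siRSAD2 libraries and the other two were lower. The log2 difference of 0.16 ± 0.06 (SE) had an adjusted p of 0.072 in edgeR, and without that non-targeting library, replicate 4, it was 0.25 with an adjusted p of 0.00323. All other RPTOR comparisons had adjusted p values of 0.428 or more in edgeR.

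TSC1 and TSC2 form the complex through which both AKT and DDIT4 act on mTORC1. TSC1 lies at chr9:132891348-132946874 on the minus strand and TSC2 at chr16:2047967-2089491 on the plus strand. TSC1 had 57.9, 56.2 and 55.0 CPM in H1047R insulin libraries, against 64.5, 62.1 and 61.4 CPM in H1047R vehicle libraries, without overlap. The log2 difference of -0.15 ± 0.06 (SE) had an adjusted p of 0.195 in edgeR. With empty vector TSC1 averaged 59.0 ± 3.10 CPM with insulin and 62.0 ± 3.30 CPM with vehicle (SD, n = 3 each), and the ranges overlapped. Averaged over both vectors TSC1 differed by -0.11 ± 0.04 (log2, SE; adjusted p = 0.0817 in edgeR), and this value crossed the threshold in DESeq2 (adjusted p = 0.0489) and without the pair of libraries that stood apart (-0.14, adjusted p = 0.0285 in edgeR). TSC2 means ran from 70.4 ± 3.30 CPM in siRSAD2 H1047R insulin cells to 76.3 ± 2.25 CPM in siRSAD2 empty-vector vehicle cells (SD, n = 3 each), and no TSC2 comparison between groups had an adjusted p under 0.635 in edgeR. Of the TSC2 counts, 4.53 to 8.78% per library lay on the opposite strand, where PKD1 shares 784 exon bases with it.

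The upstream kinases AKT1, AKT2 and PDPK1 moved by less than 0.14 on the log2 scale in each of the 5 comparisons. AKT1 lies at chr14:104769349-104795751 and AKT2 at chr19:40230317-40285536, both on the minus strand, and PDPK1 at chr16:2537979-2603188 on the plus strand. AKT1 had 158, 161 and 160 CPM in siRSAD2 empty-vector vehicle libraries, against 148, 149 and 146 CPM in non-targeting libraries. These groups did not overlap, but the log2 difference of 0.11 ± 0.04 (SE) did not pass (adjusted p = 0.0815 in edgeR, 0.0291 in DESeq2). With insulin and empty vector AKT1 had 150, 139 and 148 CPM, against the same 158, 161 and 160 CPM with vehicle, again without overlap. The log2 difference of -0.13 ± 0.05 (SE) had an adjusted p of 0.0828 in edgeR and 0.0243 in DESeq2, and with H1047R the insulin difference of AKT1 was 0.00 ± 0.05.

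AKT2, whose product is the AKT isoform best known for its part in glucose uptake, had the highest levels in non-targeting cells. Its means were 193 ± 7.78 CPM in H1047R insulin, 187 ± 3.33 in H1047R vehicle, 194 ± 10.8 in empty-vector insulin and 200 ± 6.35 in empty-vector vehicle cells with siRSAD2, against 211 ± 4.33 CPM in non-targeting cells (SD, n = 3 each). The non-targeting libraries lay above all siRSAD2 empty-vector vehicle libraries, and the 4 siRSAD2 groups overlapped with their neighbours in the order of means. No AKT2 difference passed in the 5 comparisons between groups, the log2 values lying between -0.10 and 0.05 with adjusted p values of 0.287 or more in edgeR. The highest and lowest means, in non-targeting and siRSAD2 H1047R vehicle cells, were not compared directly. PDPK1, the kinase that phosphorylates the activation loop of AKT, ranged from 56.9 to 68.8 CPM over all 15 libraries, and all neighbouring groups overlapped. Its log2 fold changes lay between -0.05 and 0.11 with adjusted p values of 0.204 or more in edgeR. Its near-identical pseudogene PDPK2P had at most 0.0595 CPM in any library. Reads that map to several places, 9.92 to 17.1% per library, are kept apart from the gene counts. The low PDPK2P count therefore does not show whether such reads were lost to PDPK1.

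Across these 5 comparisons the 7 components other than DEPTOR and DDIT4 gave 35 fold changes between -0.15 and 0.16 (log2). The farthest 95% bound among them, that of RPTOR with siRSAD2, was 1.22-fold, so changes beyond that size lay outside every interval. The components did not vary as a block. Pairwise correlations of log2 CPM over the 15 libraries ran from -0.65 for AKT1 with DDIT4 to 0.68 for AKT2 with TSC2, a description over libraries that share treatments and scaling.

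The summed level of 6 epithelial markers also differed with siRSAD2, at 1900 to 2038 CPM in siRSAD2 empty-vector vehicle libraries against 2352 to 2387 CPM in non-targeting libraries, with EPCAM at or near 0 in all. The sum of 3 endothelial markers was 8.99 to 10.4 CPM in the same siRSAD2 libraries against 4.93 to 6.83 CPM, with PECAM1 at or near 0. Most of that sum was KDR, at 8.82 ± 0.371 CPM against 4.28 ± 0.406 CPM (SD, n = 3 each). The mean of CDH5 was lower in those siRSAD2 libraries, at 0.686 against 1.09 CPM, and so was that of PECAM1, at 0.117 against 0.333 CPM. With insulin and empty vector, 5 stromal markers summed to 4164 to 4798 CPM, against 4924 to 5031 CPM with vehicle, and the 3 endothelial markers to 6.99 to 7.86 CPM, against 8.99 to 10.4 CPM. With insulin and H1047R the stromal sum was 4424 to 4924 CPM, against 4721 to 4912 CPM with vehicle. The sum of 3 immune markers was 1.11 to 9.37 CPM in siRSAD2 empty-vector vehicle libraries and 0.751 to 1.97 CPM in non-targeting libraries, with CD3E at or near 0. PTPRC alone ranged from 0.884 to 9.03 CPM in those siRSAD2 libraries, at a mean of 3.75 ± 4.57 CPM (SD, n = 3). The high end of the immune sum thus rests on 1 library. The part of these shifts in the DDIT4 and DEPTOR values was not tested. The cultures were of 1 line, and in RNA from whole cultures fewer cells of a type and less RNA per cell cannot be told apart.

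For the 3 components with a difference among groups, the protein-coding genes with the most similar pattern over the 15 libraries were ranked by Pearson correlation of log2 CPM among 10455 genes, as a description without a test. DDIT4 was closest to CARS1, which encodes cysteinyl-tRNA synthetase (r = 0.91), followed by OPA1, a GTPase of mitochondrial fusion, and the translation initiation factor EIF5 (r = 0.90 for both). EIF5 averaged 349 ± 4.22 CPM in H1047R insulin against 319 ± 6.23 CPM in H1047R vehicle cells, and 351 ± 13.3 CPM in empty-vector insulin against 307 ± 0.493 CPM in empty-vector vehicle cells (SD, n = 3 each). DEPTOR was closest to the amino acid transporter SLC38A5 (r = 0.92), the iron transporter SLC11A2 and the ribosomal protein gene RPS14 (r = 0.90 for both). AKT2 was closest to PFN1, which encodes the actin-binding protein profilin (r = 0.97), POLD2, a subunit of DNA polymerase delta (r = 0.95), and SH3BGRL3 (r = 0.94).

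Of 83 other genes of the pathway, listed by role and all tested, 40 differed among the 5 groups, beside 3 of the 9 components and 28.4% of all genes. The share over all genes depends on the filter. With a stricter filter on low counts (filterByExpr), 41 of the list differed, beside 6679 of 16400 genes tested. With siRSAD2 that filter gave 28 of the list, beside 4611 of the 16400. With siRSAD2, 10 of the 83 were higher and 13 lower, with a median log2 fold change of -0.04, where 9.82% of all genes were higher and 9.72% lower with a median of 0.02. Among 15 effectors of mTORC1, 2 rose and 4 fell, beside 19.5% of all genes called in either direction. EIF4B, a translation initiation factor phosphorylated downstream of S6 kinase, had 465 ± 7.95 CPM in siRSAD2 cells and 634 ± 13.1 CPM in non-targeting cells (SD, n = 3 each), a log2 fold change of -0.45 ± 0.04 (SE; adjusted p = 2.05e-09 in edgeR). The S6 kinase gene RPS6KB2 fell by 0.38 on the log2 scale (adjusted p = 3.95e-05 in edgeR). GRB10, an adaptor that restrains the insulin receptor and is stabilized by mTORC1, rose by 0.37 (adjusted p = 5.37e-05 in edgeR).

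Among 13 stress and energy inputs, 4 rose and 2 fell with siRSAD2, beside the same 19.5% of all genes. SESN1, a sestrin that inhibits mTORC1 upstream of the RAG GTPases, had 29.7 ± 0.887 CPM in siRSAD2 cells and 18.3 ± 1.41 CPM in non-targeting cells (SD, n = 3 each), or 1.62-fold more (adjusted p = 1.07e-08 in edgeR). PRKAB1, a subunit of the energy sensor AMPK, rose by 0.38 ± 0.06 (log2, SE; adjusted p = 2.7e-05 in edgeR). SGK1, a kinase activated by PDPK1 and mTORC2, was 157 ± 5.36 CPM in siRSAD2 cells and 116 ± 2.17 CPM in non-targeting cells (SD, n = 3 each), and it rose by 0.43 ± 0.05 (log2, SE; adjusted p = 3.92e-08 in edgeR). Of the 3 genes listed with TSC and RHEB, RHEB alone was called, lower by a log2 value of -0.28 ± 0.05 (SE; adjusted p = 9.44e-05 in edgeR). RHEB is outside the rule for named genes and was picked after its values were seen.

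With insulin and empty vector, 3 of the 83 rose and 8 fell (median -0.02), and of all genes 2.1% rose and 4.19% fell. SGK1 had 111 ± 2.06 CPM with insulin and 157 ± 5.36 CPM with vehicle (SD, n = 3 each), a log2 fold change of -0.50 ± 0.05 (SE; adjusted p = 9.66e-09 in edgeR). TBC1D4, the AKT substrate that controls glucose transporter traffic, fell by 0.48 (adjusted p = 1.64e-06), MAF1, a repressor of RNA polymerase III, by 0.23 (adjusted p = 0.0171) and EIF4B by 0.17 (adjusted p = 0.0101), all log2 values from edgeR. SESN1 had 39.8 ± 1.26 CPM with insulin and 29.7 ± 0.887 CPM with vehicle (SD, n = 3 each) and rose by 0.43 on the log2 scale (adjusted p = 8.3e-05 in edgeR). SESN3 and THEM4, the other two genes that rose, were named after their values were seen. The count of 11 called genes was 5 without siRSAD2 empty-vector vehicle library 3, 6 without library 1 of that group, 4 within 1 opposite-strand class and 7 without the pair that stood apart. Of all genes, 947, 1339, 588 and 1066 were called in those analyses, against 1457.

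With insulin and H1047R, 1 of the 83 rose and 5 fell (median -0.02), and of all genes 0.483% rose and 1.99% fell. SGK1 and TBC1D4 were lower here too, by log2 values of -0.49 ± 0.05 and -0.43 ± 0.06 (SE), with adjusted p values of 2.49e-08 and 1.83e-05 in edgeR. EIF4B fell by 0.28 (adjusted p = 6.28e-05 in edgeR) and RICTOR, the defining subunit of mTORC2, by 0.30 (adjusted p = 0.00313 in edgeR). CASTOR2, from the family of arginine sensors, fell by 0.39 (adjusted p = 0.0493 in edgeR), and SESN1 rose by 0.28 (adjusted p = 0.0197 in edgeR). The count of 6 called genes was 10 without the pair that stood apart or without empty-vector insulin library 2 alone, and 12 within 1 opposite-strand class. Of all genes, 910, 824 and 1256 were called in those analyses, against 573. All H1047R libraries are in 1 class, so the analysis within 1 class compared the same libraries as the main fit. With only the compared groups in the fit, 12 of the list and 1272 of all genes were called. None of the 83 passed the test of a different insulin effect between vectors.

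**Figure D4:**
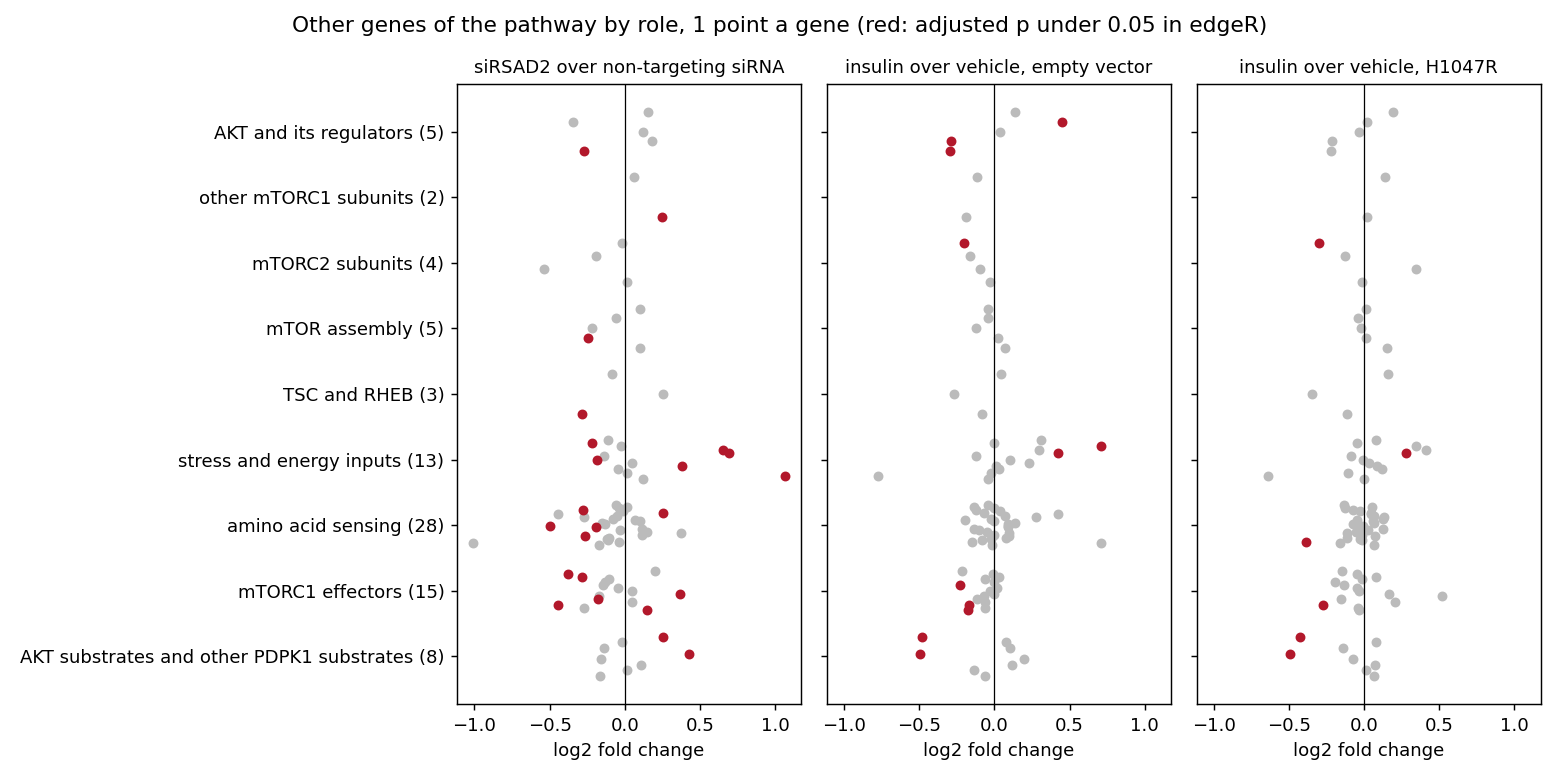
Log2 fold changes of 83 other pathway genes by role (1 point a gene, number of genes in brackets) with siRSAD2 and with insulin in each vector, red where the adjusted p was under 0.05 in edgeR. SGK1 and TBC1D4 are the leftmost red points of the bottom row with insulin in both vectors, and with siRSAD2 red points lie on both sides of 0.

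For H1047R, 3 of the 83 genes were called in vehicle, beside 1.36% of all genes, and 1 with insulin, beside 0.285%. In vehicle the AKT substrate GSK3A differed by -0.35 ± 0.07 and AKT1S1 (PRAS40), the mTORC1 subunit that AKT phosphorylates, by -0.26 ± 0.06 (log2, SE), with adjusted p values of 0.0069 and 0.0282 in edgeR. GRB10 had 57.7 ± 3.39 CPM in H1047R vehicle and 48.6 ± 2.03 CPM in empty-vector vehicle cells (SD, n = 3 each), a log2 fold change of 0.25 ± 0.06 (SE; adjusted p = 0.0323 in edgeR). With insulin GRB10 had 64.6 ± 1.26 CPM in H1047R and 48.5 ± 0.421 CPM in empty-vector cells (SD, n = 3 each), a log2 fold change of 0.42 ± 0.06 (SE; adjusted p = 0.000628 in edgeR). The count in vehicle was 0 with the term for the opposite-strand class and ranged from 0 to 5 when libraries were left out in turn, 0 without H1047R vehicle library 1, 1 without library 2 or 3 of that group or without empty-vector vehicle library 3, and 5 without empty-vector insulin library 2. With insulin it was 1 with that term, and it reached 7 when libraries were left out in turn, without empty-vector insulin library 3. Of all genes, 3 were called in vehicle with the term and 64 to 711 with libraries left out in turn, against 316. With insulin 20 of all genes were called with the term and 463 without empty-vector insulin library 3, against 66. The term is separated from H1047R only through that library, so the counts with the term cannot show what the class contributed.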

How the data were processed

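mRNA sequencing of 15 libraries of 12Z cells was analysed from gene counts. Adapters were removed by the authors from paired-end reads of 50 bases (Trim Galore, cutadapt), quality was assessed in FastQC, and STAR aligned the reads to hg38. The deposited values are raw counts per gene (unstranded, forward and reverse), with no normalization. Tool versions are not given in the sources used here, and the annotation release named in the methods is numbered like a mouse release although the identifiers are human. The reverse-stranded counts were used, as in the study, and the 4 summary entries per library were kept out. Of 60617 identifiers, 60357 matched GENCODE release 44.

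Genes that averaged 1 count or more per library were tested with edgeR 4.0.16 (R 4.3.3; quasi-likelihood F test, TMM factors, 1 term per group, all libraries in 1 fit, 10 residual degrees of freedom), with Benjamini-Hochberg adjustment over all genes and a threshold of 0.05. The study used DESeq2 with a threshold of 0.001. CPM are TMM-scaled, SE were taken from the F statistic, and levels per kb use GENCODE lengths. The fit was tested on simulated counts. Alternatives were DESeq2 1.42.0, other size factors and filters, unstranded counts, only the compared groups, a replicate block and each library left out. The opposite-strand class and the removal of a pair of libraries were added after the data were seen. Libraries of a group are described as independent experiments, and no 2 libraries agreed within sampling noise.

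The components and gene lists were chosen with earlier results of these data known. Beside the 9 components, up to 6 list genes per comparison were named, those with the smallest p among called genes at a mean of at least 5 CPM whose groups did not overlap, and for each component that differed among groups the 3 most correlated protein-coding genes. Genes named outside this rule are marked. A list gene that met the rule with insulin is not reported here.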

Additional observations from a re-analysis of the deposited data

Results flagged for a closer look

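Reads on the strand opposite to the reverse-stranded counts were not used in the comparisons above. Summed over the 9 components, their share was 1.57% in siRSAD2 H1047R insulin libraries (range 1.35 to 1.91%) and 1.60% in siRSAD2 H1047R vehicle libraries (1.47 to 1.73%). It was 0.989% in siRSAD2 empty-vector insulin libraries (0.590 to 1.32%), 0.968% in siRSAD2 empty-vector vehicle libraries (0.877 to 1.04%) and 0.883% in non-targeting libraries (0.837 to 0.931%). All H1047R libraries lay above all non-targeting libraries. The difference was not tested, and its part in the H1047R comparisons was not tested.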

How the results depend on the processing

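Of 2115 single-gene values under alternative settings for the 9 components, 2079 stayed on their side of the threshold, 17 lost and 19 gained a call. No called value turned its sign, and 109 of the 2079, all uncalled, did. Called components numbered 2 with DESeq2 for insulin with empty vector and for the insulin average (1 in edgeR). Beside them DESeq2 called 1651 and 2198 of all genes (1457 and 1940 in edgeR). For siRSAD2 (2 in edgeR) the called components numbered 4 with upper-quartile size factors, 3 each with DESeq2, the filterByExpr filter and only the compared groups, and 1 with unstranded counts (AKT1). In the same order these settings called 4494 of 23184, 4328 of 23184, 4611 of 16400, 4763 of 23338 and 4307 of 24401 genes. The counts were, at the study's threshold of 0.001, 1 for siRSAD2 and 0 for insulin with H1047R. The insulin average gave 2 without the pair of libraries that stood apart, beside 2087 of 22942 genes tested. Leaving out each library in turn gave 1 to 2 for insulin with empty vector, 2 to 4 for siRSAD2 and 1 to 2 for the insulin average. Over all genes it gave 947 to 1844, 3413 to 5241 and 1511 to 2152. The components gained were AKT1, RPTOR and TSC1. The cause was not tested.

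Over all genes, the 0.001 threshold left 1761 genes for siRSAD2 (4530 at 0.05), 353 for insulin with empty vector (1457), 205 for insulin with H1047R (573), 11 and 13 for H1047R in vehicle and with insulin (316 and 66), 651 and 79 for the insulin and H1047R averages (1940 and 630) and 2892 for any difference (6587). With only the compared groups the counts were 520 and 1272 for insulin with empty vector and H1047R, and 546 and 39 for H1047R in vehicle and with insulin. Without a filter on low counts, H1047R gave 707 in vehicle, 418 with insulin and 1014 on average, and the interaction 81, and DESeq2 gave 154 for H1047R with insulin. Within 1 opposite-strand class, insulin gave 588 with empty vector and 1256 with H1047R. The H1047R count there compared the same libraries as the main fit. Without the pair that stood apart, insulin with H1047R gave 910, H1047R in vehicle 484 and the interaction 1. Leaving out libraries in turn gave 947 to 1844 for insulin with empty vector, 354 to 824 for insulin with H1047R, 64 to 711 for H1047R in vehicle, 19 to 463 with insulin and 270 to 1203 on average.

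Libraries that share a replicate number did not deviate together as a whole (r from -0.26 to 0.31, over 0.1 in 2 of 18 pairs). Same-numbered libraries of the insulin groups had r of 0.31, 0.26 and 0.09, and those of the H1047R groups -0.05, -0.26 and -0.07. Deviations from a group mean cancel within the group, so these r values tend to balance and cannot show whether the numbers pair. With a replicate block the called components were 1 for insulin with empty vector and 1 for insulin with H1047R, in both cases DDIT4 (log2 0.48 and 0.32). Beside it 1337 and 522 of all genes were called. The siRSAD2 comparison shares no replicate numbers. The depth of DEPTOR, 24 to 114 counts, limits what can be resolved for it.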

Other observations

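DDIT4L, the paralogue of DDIT4 that also restrains mTORC1, is outside the rule for named genes and was picked after its values were seen. It had 1.38 ± 0.205 CPM in siRSAD2 empty-vector vehicle cells and 0.652 ± 0.0966 CPM in non-targeting cells (SD, n = 3 each). Its log2 fold change with siRSAD2 was 1.07 (adjusted p = 0.0138 in edgeR), where DDIT4 fell by 0.38. With insulin it averaged 0.805 ± 0.107 CPM with empty vector against 1.38 ± 0.205 CPM with vehicle, and 1.11 ± 0.179 CPM with H1047R against 1.78 ± 0.619 CPM with vehicle (SD, n = 3 each). Averaged over vectors, insulin changed DDIT4L by -0.71 on the log2 scale (adjusted p = 0.0355 in edgeR), where DDIT4 rose by 0.40. In both contrasts the paralogues therefore differed in sign, although DDIT4L had only 13 to 57 counts per library and the difference between the paralogues was not tested. Both contrasts use the siRSAD2 empty-vector vehicle libraries, with opposite sign, so they are not independent.

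SESN2, a stress-induced sestrin also picked after its values were seen, had 7.93 ± 0.340 CPM in H1047R insulin and 5.97 ± 0.328 CPM in H1047R vehicle cells, and 7.11 ± 0.950 CPM in empty-vector insulin and 5.82 ± 0.0851 CPM in empty-vector vehicle cells, against 3.68 ± 0.772 CPM in non-targeting cells (SD, n = 3 each). It was higher with siRSAD2 by 0.65 (log2, adjusted p = 0.00094 in edgeR) and with insulin averaged over vectors by 0.35 (log2, adjusted p = 0.0135 in edgeR).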
